A study of Mus musculus with 10 samples.

Results

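The retinoid genes described here are Adh7, Aldh1a1, Rbp4, Crabp1, Crabp2, Rara, Rarb, Rarg and Rxra, which carry, oxidise, bind or sense vitamin A and its product retinoic acid. Of these 9 genes, 8 had a probe set named for them alone, with 10 probe sets in all among the 12488 of the array, and Rarb was not analysed here. Adh7 was chosen from its values in these arrays, where it was low in brains with a single paternal X chromosome, so its levels and differences are given as a description with no test. The other members were chosen by function, and the question was whether they follow Adh7. Of the 10 member probe sets, 8 were bright enough to be tested. Of the 7 of these that are not Adh7, 0 were called in any comparison, where 0.0115% to 0.0805% of all 8695 tested probe sets were. No other tested member reached the size of the Adh7 drop in brains with a single paternal X. Their differences there ran from -0.31 to 0.15 on the log2 scale, against -1.71 for Adh7. By absolute size Adh7 ranks 24 among the 8695 tested probe sets in this comparison. Few probe sets of any kind reach that size, so none among 7 says little about the members.

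RNA of whole brains of newborn mice (postnatal day 0) was measured on 10 Affymetrix arrays. XmO animals (39 chromosomes, with 1 X, named in the labels as maternal) and XX_Paf females (40 chromosomes) are offspring of C57BL/6J x C3H/Paf matings, and each group has 3 arrays. XpO animals (39 chromosomes, 1 X, named as paternal) and XX_InX females (40 chromosomes) are offspring of In(X)/C3H x C57BL/6J matings, and each group has 2 arrays. In(X) is the usual notation for an inverted X chromosome, which the second mating has and the first does not. Parental origin of the X and the cross cannot be told apart between XmO and XpO. Within each cross the XX females also carry an X of the other parent and strain. The absence of that X and the number of X chromosomes cannot be told apart. Monosomy effect below means only the difference of XO from XX within a cross. The labels do not state whether an array holds 1 animal or a pool, and that of XX_InX 1 alone speaks of females in the plural, so the p-values measure the spread between these arrays, which may be technical.

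Retinol travels in blood bound to retinol-binding protein and transthyretin, and cells oxidise it first to retinaldehyde and then to retinoic acid. Alcohol and retinol dehydrogenases take the first step and aldehyde dehydrogenases such as Aldh1a1 the second. Retinoic acid enters the nucleus on cellular binding proteins and acts through RAR receptors, which pair with RXR receptors on DNA and switch target genes; in the developing brain it is known for patterning the hindbrain and for neuronal differentiation.

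Across the arrays the deposited intensities have a common trimmed mean (500.3, after 2% at each end was left out), so they had been scaled to each other. The sex chromosome labels were borne out: Xist, the RNA of X inactivation, read 1673 to 4082 in the XX arrays and 21.3 to 49.9 in the XO arrays. Summed markers of neurons, 10 genes with 13 probe sets, ran from 79597 to 92016, and 12 of these probe sets were above background on every array. Background here is the brightest of 9 Y-linked probe sets on the same array, which read 33.6 to 136.6 in these females. Blood markers, 4 of 9 genes, summed to 11284 to 17288 in XmO and 11689 to 16971 in XX_Paf, and to 5952 to 7455 in XpO and 4016 to 6178 in XX_InX, so they differ between the crosses, and their part in the cross differences below was not tested. Skeletal muscle markers, 9 genes, summed to 4998 in XX_Paf 2 alone, one of the XX_Paf arrays low in Adh7, and to 1128 to 2011 on the other 9 arrays, and their part was not tested. A group difference in whole brain does not separate fewer cells of a type from less RNA per cell; these cannot be told apart. Levels of different probe sets are not compared, since their probes differ.

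Adh7 encodes an alcohol dehydrogenase that oxidises retinol and is best known from epithelia. Its promoter is shown because Adh7 is the gene the question starts from. The sequence below runs 250 bases before the start site to 50 bases from it on, from RefSeq (GRCm38.p6), chr3:138217523-138217822, plus strand, and the capitals mark a retinoid half-site, here on the opposite strand. This start site (138217773) lies inside the gene as RefSeq places it, from 138198064 to 138232042. The region before 138198064 was not searched.
Adh7 promoter: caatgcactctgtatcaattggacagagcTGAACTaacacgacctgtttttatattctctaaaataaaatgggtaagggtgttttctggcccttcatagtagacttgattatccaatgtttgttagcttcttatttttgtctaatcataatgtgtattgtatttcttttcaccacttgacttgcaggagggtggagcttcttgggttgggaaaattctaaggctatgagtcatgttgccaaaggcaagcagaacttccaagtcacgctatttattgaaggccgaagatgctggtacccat

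Retinoic acid receptors and their RXR partners are known to bind pairs of such half-sites. The forms searched, on either strand, were AGGTCA, the variant AGTTCA, the variant GGGTCA, and the variant GGTTCA. The Adh7 window holds 1 (AGTTCA, read on the minus strand, 221 to 216 bases before the start site) and no pair of half-sites separated by 1, 2 or 5 bases. Of the 32851 promoters in the table, 43.7% hold a half-site, 0.222% a pair separated by 1 base, 0.268% by 2 bases and 0.0974% by 5 bases. The table holds promoters of 8 of the 9 members, 15 in all, and a spaced pair occurs in 1 of them. It is in the Rarb promoter, separated by 5 bases, chr14:16575513-16575529, minus strand, 53 to 37 bases before the start site, with the half-sites in capitals.
Rarb pair: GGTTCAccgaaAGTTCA
A match is a description of letters in this window and shows no binding.

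Adh7 set XpO and XX_InX apart from each other and from the rest, while the groups of the Paf cross overlapped. The intensities were 298.9, 313.5 and 364.3 in XmO, 203.3, 169.0 and 378.2 in XX_Paf, 159.6 and 106.3 in XpO, and 430.2 and 424.9 in XX_InX. All 10 lie above background, though XpO 18 (106.3) stands only a little over its background of 83.4. The XpO arrays are the lowest of all 10, and the XX_InX arrays are the highest. XmO and XX_Paf overlap, because XX_Paf 3 is above every XmO array while XX_Paf 1 and 2 are below every one.

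On the log2 scale, Adh7 stood lower by -1.71 in XpO than in XX_InX (SE 0.33), which is 0.305 times the level. XmO stood above XX_Paf by 0.46 (SE 0.27) and above XpO by 1.32, and XX_Paf stood below XX_InX by -0.86. The monosomy effect of the first cross minus that of the second was 2.18 (SE 0.43). Among 8695 probe sets, Adh7 ranks 24 by absolute size in the In(X) cross, 26 in the difference between crosses and 785 in the Paf cross. These values chose the gene, so they carry no test. Without XX_Paf 3 the XmO difference was 0.81, and without XX_Paf 2 it was 0.23. XpO against XX_InX stayed between -2.01 and -1.42 when any array was left out.

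**Figure D1:**
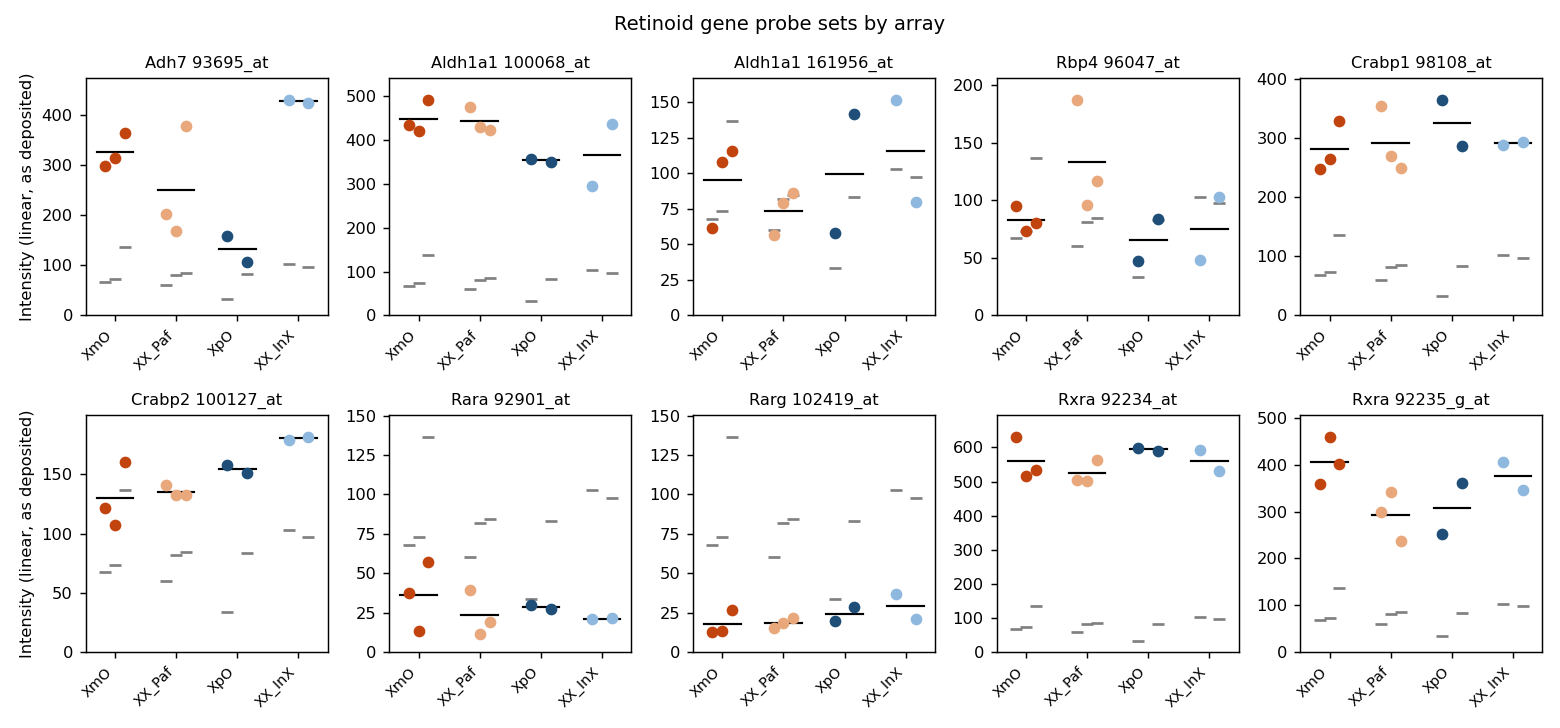
Deposited intensity (linear scale, y axis from 0) of the 10 member probe sets on each array, by group; each point is an array, black lines are group means, and grey dashes the brightest Y-linked probe set of the same array. Adh7 is lowest in the 2 XpO arrays and highest in the 2 XX_InX arrays, and Rara and Rarg lie below the dashes on every array.

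Genes of squamous, nasal and gut epithelium, where Adh7 is known to be expressed, were looked at beside it. All 15 listed genes had probe sets, 22 in all, of which 10 were under background on every array and 4 above it on every array. Their summed intensity was 2396 to 3129 in XpO, 2828 to 3216 in XX_InX, 2639 to 2751 in XmO and 2344 to 2657 in XX_Paf. XpO and XX_InX overlap and XmO and XX_Paf overlap. Of these probe sets 9 were tested with 0 called, where 0.0115% to 0.0805% of all 8695 tested probe sets were, so that count says little. In the monosomy comparisons most estimates had the sign of Adh7. Of the 9, 6 were lower in XpO than in XX_InX (median -0.10, beside -0.01 over all probe sets). In XmO against XX_Paf 6 were higher (0.12, beside 0.00), and in the difference between crosses 8 were higher (0.13, beside 0.01). In XmO against XpO most had the opposite sign to Adh7, with 3 higher and 6 lower (-0.05, beside 0.00). In XX_Paf against XX_InX 6 were lower (-0.26, beside -0.02), as Adh7 was. These comparisons share arrays. Over the 10 arrays, r of the log2 sum with Adh7 was 0.16. The sums of choroid plexus markers (4227 to 4693 against 5025 to 5239) and of liver markers (1542 to 1906 against 2267 to 2513) were also lower in XpO than in XX_InX, without overlap. Both lists hold transthyretin (Ttr), which alone read 908.2 and 1617 in XpO and 1724 and 1929 in XX_InX. The 2 sums are therefore not independent, and no sum without Ttr is given. Of 4 tested choroid plexus probe sets, 2 were lower in XpO and 2 higher, and all 4 tested liver ones were lower. The part of these epithelial, choroid plexus and liver markers in the Adh7 values was not tested.

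Of the measured genes nearest to Adh7 on each side along chromosome 3, taken in equal number and 10 in all, 7 were tested and 0 were called. Their gene starts lie from -1528 kb (Ppp3ca) to 328 kb (Eif4e) from that of Adh7. Genes without a probe set named for them alone were passed over. Adh1 and Adh4, its neighbouring alcohol dehydrogenases, and Mttp, the nearest gene measured on the other side, which loads lipid onto lipoproteins, were under background on all 10 arrays and were not tested. Adh5, the glutathione-dependent formaldehyde dehydrogenase next to them, read 1777 to 2131 on one probe set and 2319 to 3022 on the other. On the latter it stood 0.17 higher in XpO than in XX_InX, with a 95% interval from -0.15 to 0.50. On the former the same difference was -0.0026. Of 10 tested neighbour probe sets, of Ppp3ca, Emcn, H2az1, Lamtor3, Adh5, Metap1 and Eif4e, limma called 0 in every comparison. Over all 8695 tested probe sets the share called was 0.0115% to 0.0805%, so 0 called says little about the neighbours. One of 3 Emcn probe sets, for an endothelial surface protein, read 47.5 and 63.8 in XpO and 149.9 and 112.2 in XX_InX, without overlap (-1.24, SE 0.43, limma adjusted p = 1). That probe set was over background on 6 of 10 arrays and XpO 18 was under it, so the size is uncertain. Another Emcn probe set, tested too, differed by -0.17, and endothelial markers, 9 genes with 12 probe sets, summed to 3508 to 4037 in XpO and 3872 to 4073 in XX_InX. The other neighbours of smallest p were H2az1 (-0.39) and Eif4e (-0.84, over background on 7 of 10 arrays) in XmO against XX_Paf, and Lamtor3 (0.41) in XpO against XX_InX, with limma adjusted p from 0.877 to 1. The dimmer Metap1 probe set was under background on all 3 XX_Paf arrays, so no difference is given for it, and the brighter one differed by 0.02 in XmO against XX_Paf.

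Rbp4, the carrier of retinol in blood, read 95.3, 73.7 and 80.0 in XmO, 187.4, 95.7 and 116.7 in XX_Paf, 47.2 and 83.9 in XpO and 48.3 and 102.6 in XX_InX, over background on 8 of 10 arrays. XmO 7 and XX_InX 1 were under their backgrounds of 136.6 and 102.9, so the sizes of the differences are uncertain. The XmO arrays are all below the XX_Paf arrays, by -0.63 (SE 0.41, limma adjusted p = 0.887, 95% interval -1.52 to 0.26). XpO and XX_InX overlap, and the difference between crosses was -0.47 (95% interval -1.88 to 0.94), which ran from -1.01 to 0.073 when any array was left out and was 0.073 without XX_InX 1.

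Transthyretin (Ttr), which travels with Rbp4, was 1156 to 2375 in XmO, 2100 to 2917 in XX_Paf, 908.2 and 1617 in XpO and 1724 and 1929 in XX_InX. Its differences of -0.48 (XmO against XX_Paf, groups overlap) and -0.59 (XpO against XX_InX, no overlap) did not pass (limma adjusted p = 0.887 and 1). Choroid plexus markers, 7 of 15 genes with 9 probe sets and Ttr among them, summed to 4090 to 5597 in XmO and 5760 to 6658 in XX_Paf. Liver markers summed to 1467 to 2923 in XmO and 2668 to 4150 in XX_Paf, which overlap. In the In(X) cross both sums were lower in XpO than in XX_InX, as given beside Adh7. Both lists have Ttr, and their part in the Rbp4 values was not tested.

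Crabp1 and Crabp2 bind retinoic acid inside the cell. Crabp1 read 247.8, 265.0 and 328.5 in XmO, 353.3, 270.2 and 249.4 in XX_Paf, 364.0 and 286.3 in XpO and 288.4 and 292.6 in XX_InX. The groups overlap throughout, and the highest array is only 1.47 times the lowest, against 4.05 times for Adh7. The difference between crosses was -0.20 (95% interval -0.86 to 0.46).

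Crabp2 read 121.4, 107.4 and 160.2 in XmO, 141.3, 132.3 and 132.8 in XX_Paf, 158.2 and 151.3 in XpO and 179.2 and 181.7 in XX_InX. The XX_InX arrays are the highest of the 10, as they are for Adh7. The step from XX_InX to XpO was small (-0.22, 95% interval -0.84 to 0.40, limma adjusted p = 1), and XmO overlaps XX_Paf. Meninges and fibroblast markers, 14 genes with 22 probe sets, summed to 19837 to 21154 in XX_InX, 15134 to 21324 in XpO, 14612 to 17579 in XmO and 15318 to 16301 in XX_Paf. Of their 18 tested probe sets, 16 were lower in XpO than in XX_InX, with a median of -0.32 beside -0.01 over all probe sets. Of the 18, 0 were called, where 0.0115% of all tested probe sets were. Their part in the Crabp2 values was not tested.

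Aldh1a1 makes retinoic acid from retinaldehyde and marks a set of midbrain dopamine neurons. Its brighter probe set read 434.0, 419.9 and 490.5 in XmO, 474.5, 428.5 and 421.9 in XX_Paf, 355.8 and 349.7 in XpO and 295.0 and 435.2 in XX_InX. XpO lies below both groups of the other cross, but inside the XX_InX range. XmO stood above XpO by 0.34 (SE 0.19, limma adjusted p = 0.969), and the difference between crosses was 0.04 (95% interval -0.53 to 0.61).

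The second Aldh1a1 probe set was over background on 5 of 10 arrays and ran from 56.4 to 151.4, with overlap in every pair of groups and a difference between crosses of 0.62 (95% interval -0.87 to 2.11). Dopamine neuron markers, 9 of 10 genes with 10 probe sets, summed to 2166 to 2171 in XpO, 2212 to 2471 in XmO, 2268 to 2457 in XX_InX and 2084 to 2395 in XX_Paf. XpO was below XmO in this sum and on the brighter Aldh1a1 probe set, while on the second the groups overlap (0.02). Of their 8 tested probe sets, 4 were higher and 4 lower in XmO than in XpO, and the part of these cells was not tested.

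The RAR receptors were dim. Rara ran from 11.7 to 57.1 and Rarg from 12.7 to 36.8, both under background on all 10 arrays, so no difference is given. Rxra, the partner receptor, was bright on both of its probe sets.

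The first Rxra probe set read 631.7, 516.3 and 532.8 in XmO, 504.6, 502.9 and 564.0 in XX_Paf, 598.8 and 591.1 in XpO and 591.3 and 531.5 in XX_InX. It was the steadiest member, with the highest array 1.26 times the lowest, and its difference between crosses was 0.01 (95% interval -0.46 to 0.47).

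The second Rxra probe set read 359.4, 459.7 and 401.1 in XmO, 298.4, 342.6 and 237.6 in XX_Paf, 251.7 and 361.4 in XpO and 405.7 and 346.7 in XX_InX. XmO lies above XX_Paf without overlap, by 0.48 (SE 0.20, limma adjusted p = 0.877), where the first probe set gave 0.09. The difference between crosses was 0.80 (SE 0.31, limma adjusted p = 0.832), with the sign of Adh7. The 2 probe sets of Rxra thus disagree, and the larger difference has an unadjusted p of 0.0242 in limma's fit.

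Over the whole array limma called few probe sets at an adjusted p under 0.05, and 0 members were among them in each comparison. Of the 8695 tested, the share called was 0.0230% in XmO against XX_Paf (481 probe sets at an unadjusted p under 0.05) and 0.0115% in XpO against XX_InX (294 at that p). It was 0.0230% in the difference between crosses (514) and 0.0115% when XO was set against XX over both (226). The XO groups gave 0.0115% (420) and the XX groups 0.0805% (1199). At an unadjusted p under 0.05, members other than Adh7 numbered 1 in XmO against XX_Paf and 1 in the difference between crosses, each the second Rxra probe set, and 0 in the other comparisons. Of the 7 tested probe sets other than Adh7, 5 had a higher and 2 a lower difference between crosses, with a median of 0.04, beside 0.01 over all probe sets. For XpO against XX_InX, 2 were higher and 5 lower (median -0.16, beside -0.01 over all), and for XmO against XX_Paf 4 were higher and 3 lower (median 0.02, beside 0.00). The comparisons share arrays, so their counts are not independent.

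Groups that do not overlap are common with so few arrays. For XmO against XX_Paf, 2 of the 7 probe sets (Rbp4 and the second of Rxra) did not overlap, and the share over all tested probe sets was 13.9%. For XpO against XX_InX it was 1 of 7 (Crabp2), beside 23.4%. For XmO against XpO it was 1 of 7 (Aldh1a1), beside 17.4%, and for XX_Paf against XX_InX 2 of 7 (Crabp2 and the second of Rxra), beside 37.1%. None of the 7 lay above XX_Paf on every XmO array and below XX_InX on every XpO array, which 0.897% of all tested probe sets did. Adh7 itself lacks this order, since its XmO and XX_Paf arrays overlap. With so small a share, none among 7 says little about the members.

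**Figure D2:**
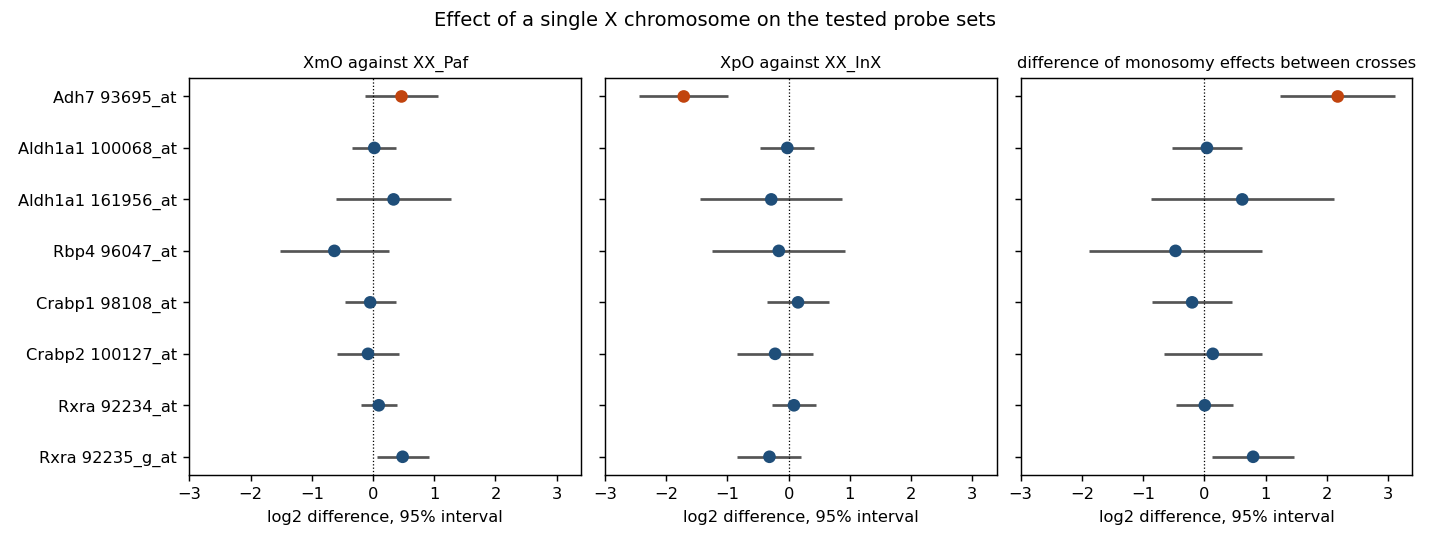
Fitted log2 differences with 95% intervals (x axis) of the 8 tested member probe sets (y axis) for the monosomy effect in each cross and for the difference between them. Adh7 (orange, chosen from these values) stands at -1.71 for XpO against XX_InX and at 2.18 for the difference; of the rest, the intervals for the difference include 0 except that of the second Rxra probe set (0.80).

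Over the 10 arrays, Adh7 was compared with each of the other 9 member probe sets (log2 values). Pearson's r ran from -0.29 (Crabp1) to 0.23 (the second of Rxra), and Spearman's rho from -0.17 (Rara) to 0.39 (the second of Aldh1a1). Adh7 was chosen from these values and the arrays fall in 4 groups, so r and rho are given as a description with no test. Without XpO 15 and XpO 18, the 2 arrays farthest from the Adh7 median, r ran from -0.51 (Rbp4) to 0.60 (Rarg, under background).

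No gene of the wider pathway lists was called either. Of 47 further genes for retinoid supply, enzymes and binding, 26 had a probe set and 15 were tested, with 19 probe sets; for receptors and cofactors the counts were 21, 16 and 15, with 18 probe sets, and for genes known as targets of retinoic acid 50, 38 and 23, with 27. Of the tested probe sets limma called 0 in each direction and comparison, where 0.0115% to 0.0805% of all 8695 were called. With so small a share, 0 called says little about these lists. The median difference between crosses was 0.07, -0.06 and -0.01 for the 3 lists in this order, beside 0.01 over all probe sets. Fabp5 was the 1 of them whose every XmO array lay above XX_Paf and every XpO array below XX_InX, an order that 0.897% of all tested probe sets (78 of 8695) had. Adh7 itself lacks this order.

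Fabp5 delivers retinoic acid to another nuclear receptor. It read 1393, 1605 and 1430 in XmO, 1101, 1162 and 1330 in XX_Paf, 1333 and 1718 in XpO and 1815 and 1961 in XX_InX. XmO was 0.30 above XX_Paf (SE 0.13) and XpO -0.32 from XX_InX (SE 0.16), a difference between crosses of 0.62 (SE 0.20, unadjusted p = 0.00947, limma adjusted p = 0.832). XpO 18 reads close to XX_InX 1, whereas for Adh7 it is the lowest array.

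Lpl, a lipase that also frees retinyl esters, gave -1.40 in XpO against XX_InX (SE 0.54, limma adjusted p = 1) on a probe set that read 79.6 and 25.8 in XpO and 152.7 and 93.2 in XX_InX. XpO 18 and XX_InX 19 were under background there, as on 4 of the 10 arrays, so the size is uncertain. Its brighter probe set read 335.9 and 368.8 against 392.8 and 291.7, which overlap (0.06). Dgat1, which can esterify retinol, was lower in XmO than in XX_Paf on one probe set (-1.08, SE 0.25, unadjusted p = 0.000988, limma adjusted p = 0.52). Its XmO arrays read 82.2, 111.2 and 76.5 and its XX_Paf arrays 159.7, 194.9 and 213.5, while the brighter Dgat1 probe set gave -0.12. On the dimmer one XmO 7 (76.5) was under its background of 136.6, so the size is uncertain.

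The remaining enzyme with a low p, Rdh11, which reduces retinaldehyde, differed by -0.30 in XmO against XX_Paf (limma adjusted p = 0.887). Cyp1b1, a cytochrome P450 that can oxidise retinol, differed by -0.70 in XpO against XX_InX (over background on 9 of 10 arrays) and Rdh7 by -1.05 between crosses (7 of 10), with adjusted p of 1 and 0.874 from limma. Among the receptors, Rxrb, another RXR, read 1624 to 2336 with differences of 0.08 and 0.11 in the 2 crosses. Rxrg, an RXR known from the striatum, was over background on 7 of 10 arrays and gave -0.89 (SE 0.71, limma adjusted p = 0.889) in XmO against XX_Paf and 0.90 in XpO against XX_InX. The coregulator Kat2b, a histone acetyltransferase, had a difference between crosses of -0.69 (SE 0.29, limma adjusted p = 0.832), opposite in sign to Adh7. The other coregulators of smallest p had differences of 0.29 (Nrip1) and 0.25 (Ncoa1) in XmO against XX_Paf. In XpO against XX_InX they were 0.70 (Ncoa6), -0.62 (Tbl1x) and 0.37 (Asxl1), each on the dimmer of 2 probe sets, where the brighter gave 0.15, 0.22 and -0.17. Between crosses Med1 was at -0.34. The limma adjusted p of these coregulators ran from 0.873 to 1. Striatum markers, 7 of 12 genes with 10 probe sets, summed to 4183 to 4929 in XmO, 3888 to 4360 in XX_Paf, 3726 to 4242 in XpO and 3686 to 4033 in XX_InX.

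Among genes known as targets, Rarres2, which encodes the chemoattractant chemerin, was the one with the lowest p in XpO against XX_InX. It read 147.4 and 54.4 in XpO and 213.4 and 174.2 in XX_InX (-1.11, SE 0.42, limma adjusted p = 1) and differed by -0.01 in XmO against XX_Paf. XpO 18 was under its background of 83.4, so the size is uncertain. Gap43, a growth cone protein, was -0.26 lower in XmO than in XX_Paf (SE 0.11, limma adjusted p = 0.877), without overlap. Hoxb1, a hindbrain patterning gene, was at 0.43 in XmO against XX_Paf, and Hoxb3, over background on 7 of 10 arrays, at 0.89 between crosses. One Hoxa4 probe set, over background on 5 of 10 arrays, was at -1.45 in XpO against XX_InX, where the brightest one was at -0.15. Meis1 was under background on both XX_InX arrays, so no difference is given. Bhlhe40, a clock-related repressor, was at -0.46 in XmO against XX_Paf, and Rai1, named for its induction by retinoic acid, at 1.18 in XpO against XX_InX and -1.63 between crosses, over background on 6 of 10 arrays. Limma's adjusted p for these ran from 0.857 to 1. Cyp26a1, which breaks down retinoic acid and is a standard target, and Stra6, a retinol transporter, were at or near background, with 1 and 0 of 10 arrays over it.

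**Figure D3:**
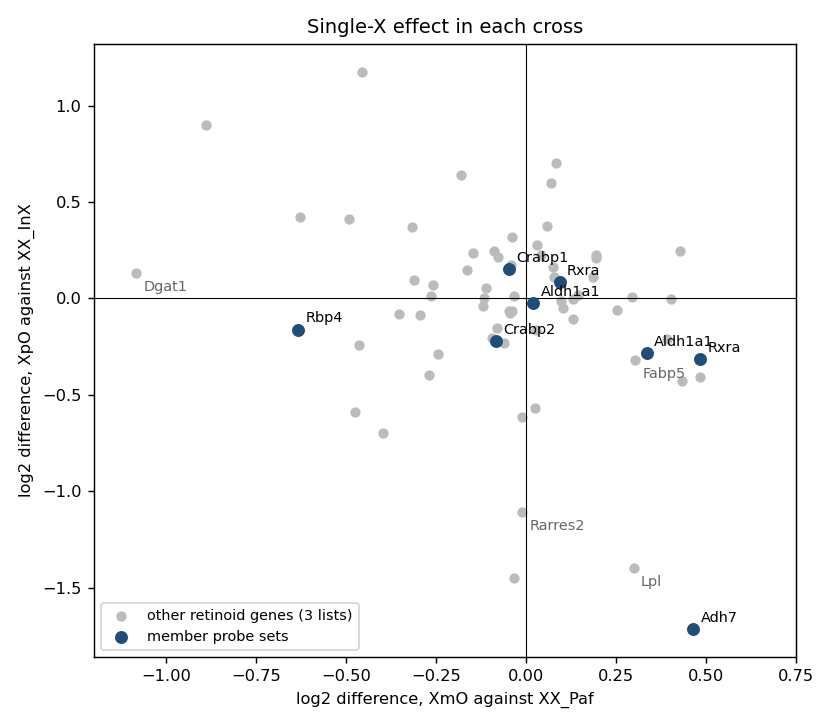
Fitted log2 difference for XmO against XX_Paf (x axis) and for XpO against XX_InX (y axis) of the tested probe sets of the members (blue, labelled) and of the 3 wider retinoid lists (grey, 4 labelled). Adh7 lies at 0.46 and -1.71, below the other members, and Fabp5 lies at 0.30 and -0.32.

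The probe sets most like Adh7 were looked for over the whole array, among 7815 with a single gene symbol, by Pearson's r of log2 values over the 10 arrays. They were Mpzl2 (0.92), Rfpl4 (0.86), Wnt6 (0.85), Ubr1 (0.85) and Ywhaq (0.84), and the most opposite were Traip (-0.88), Mrps18a (-0.88) and Ddx1 (-0.86). None is a retinoid gene in the lists used here. These r are the extremes of 7815, and the arrays they share include XpO 18, where Adh7 is lowest.

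Mpzl2, a cell adhesion protein, read 111.8, 79.4 and 85.2 in XmO, 64.7, 37.1 and 99.8 in XX_Paf, 62.5 and 25.3 in XpO and 137.7 and 99.7 in XX_InX. Like Adh7 it is low in XpO and in XX_Paf 2 and high in XX_Paf 3. It was over background on 7 of 10 arrays, and its r stayed between 0.85 and 0.95 when any array was left out. The low readings of XpO 18 and XX_Paf 2 were under their backgrounds of 83.4 and 81.6, so the likeness is uncertain there. Ubr1, a ubiquitin ligase of the N-degron pathway, read 180.7, 175.3 and 172.7 in XmO, 156.5, 172.6 and 190.4 in XX_Paf, 114.7 and 126.6 in XpO and 206.8 and 189.3 in XX_InX, above background on all arrays. Its XpO arrays are the lowest and its XX_Paf arrays overlap the others.

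**Figure D4:**
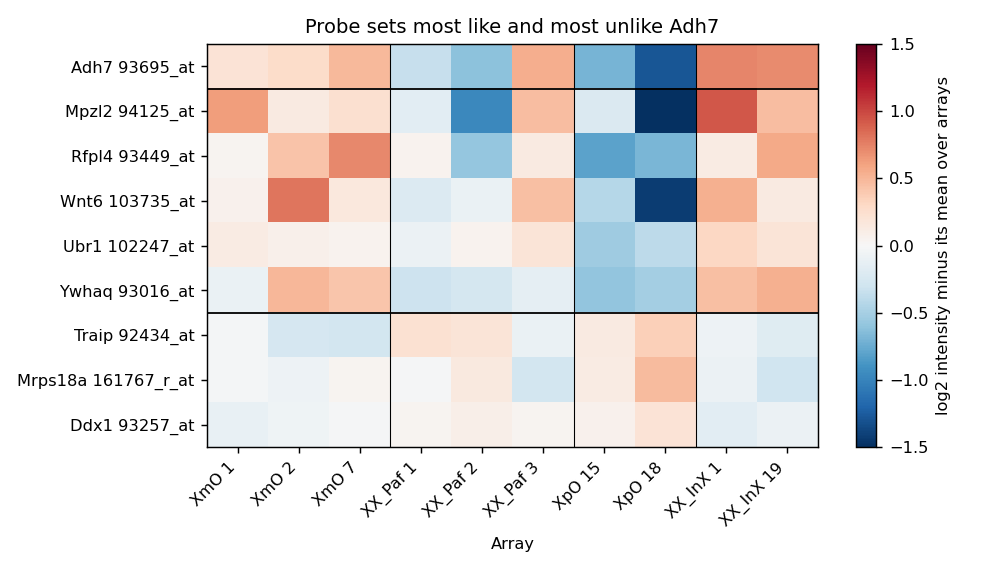
Log2 intensity minus its mean over the 10 arrays (colour) for Adh7, the 5 probe sets most like it and the 3 most opposite to it (rows) on each array (columns). The 2 XpO arrays are low in Adh7 and the 5 like it and high in the 3 opposite to it.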

How the data were processed

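The authors deposited a linear intensity for each probe set of each array; how they summarised and scaled it is not given in the sources used here. The values were used without further normalization. Of 12488 probe sets, 66 controls were left out. A floor was set at the 10th percentile (15), log2 was taken, and probe sets with a mean log2 under the 30th percentile were dropped, which left 8695.

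One mean for each of the 4 groups was fitted to all 10 arrays with limma 3.58.1 in R 4.3.3 (lmFit, eBayes with an intensity trend). Each two-sided p was adjusted (Benjamini-Hochberg) over all tested probe sets of its comparison, and a call means an adjusted p under 0.05. Intervals are 95% and unadjusted, and cover only the spread between arrays. The number of arrays limits the precision. The steps were tested on simulated data.

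Members and gene lists were chosen with earlier results of these data known. Every member probe set is named; of each list, up to 4 of smallest p in each of the 2 monosomy comparisons and their difference are named. Cyp26a1, Stra6, Rxrb and the second probe sets of named genes were chosen after their values were seen. Genes were named by the platform's probe table, and chromosomes and neighbours by RefSeq. Arrays were grouped by their labels. Alternatives were floor, filter, quantile normalization, trend, the groups fitted, a replicate block and each array left out.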

Additional observations from a re-analysis of the deposited data

How the results depend on the processing

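Under the alternatives for floor, filter, normalization, trend and the groups fitted, the count of member probe sets called was 0 in every comparison. With each array left out, that count for the difference between crosses ran from 0 to 1; the 1 was Adh7 without XX_Paf 3, and Adh7 was chosen on these values. It was 0 in the other comparisons.

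XmO and XX_Paf share replicate numbers 1 and 2. The deviations of same-numbered arrays correlated at -0.0123 and -0.0415, and crossed numbers gave 0.0865 and 0.0394. No pairing by number was seen, though 2 pairs are too few to show that there is none. With a replicate block, 0 members were called, 1 probe set was called over the whole array, Adh7 stood at 0.72 and the brighter Aldh1a1 probe set turned to -0.079. XpO and XX_InX share no number.

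Leaving out 1 array turned the sign of small log2 differences; the ranges follow, and the cause was not tested. For XmO against XX_Paf they were -0.047 to 0.073 (brighter Aldh1a1 probe set), -0.17 to 0.10 (Crabp1) and -0.25 to 0.043 (Crabp2). For XpO against XX_InX they were -0.30 to 0.26 (brighter Aldh1a1 probe set), -0.93 to 0.36 (second Aldh1a1 probe set), -0.021 to 0.33 (Crabp1) and -0.71 to 0.38 (Rbp4). For the difference between crosses they were -0.24 to 0.32 (brighter Aldh1a1 probe set), -0.029 to 1.27 (second Aldh1a1 probe set), -0.024 to 0.26 (Crabp2), -1.01 to 0.073 (Rbp4) and -0.082 to 0.084 (first Rxra probe set). Of the values of single probe sets under all alternatives, 369 kept their sign and 23 did not. By Spearman's rho, Ubr1 (0.92) tied with another probe set for the first place. In the leave-one-out runs Mpzl2 was among the top 5 in 9 of 10, and the other 4 in 2 or 3. Closeness to background limits Rara, Rarg, Rbp4 and the second Aldh1a1 probe set. Outside the members it limits the dimmer probe sets of Metap1, Hoxa4, Lpl, Dgat1 and Emcn, and Meis1, Rai1, Rxrg, Rdh7, Hoxb3, Eif4e and Rarres2. Of the probe sets like Adh7 it limits Mpzl2, Wnt6, Ywhaq and Rfpl4, over background on 7, 6, 8 and 9 of 10 arrays. Each of them was under background on XpO 18.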
